A study of Mus musculus with 6 samples.

Results

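Elastic fibre and matrix crosslinking genes were examined in the livers of 6 mice, as a set of 10 genes chosen by name: Eln, Fbn1, Mfap4, Ltbp2, Fbln2, Fbln5, Emilin1, Lox, Loxl1 and Loxl2. All 10 were among the 18418 genes with a count and all 10 passed the filter on low counts that left 13430 genes for testing. The set was picked because Eln is among the largest increases in AAV8-TBG-Cre livers, so the values of its members in the comparison of Cre with GFP are a description, and no p-value is given for them there. All mice were Mettl14f/f males on a high fat diet (HFD), started at 8 weeks of age and fed for 10 weeks before a tail vein injection of AAV8-TBG-GFP (3 mice, genotype labelled WT) or AAV8-TBG-Cre (3 mice, labelled METTL14 KO). Livers were collected 8 weeks after the vector. The TBG promoter drives the vector in hepatocytes, whereas RNA came from whole liver, so that fewer cells of a type and less RNA per cell cannot be told apart. The GFP mice carry the same floxed alleles and received the same serotype of vector, and differ in the protein it encodes.

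Elastic fibres give tissues recoil. They consist of a core of elastin laid down on microfibrils of fibrillin, with fibulins, emilin and microfibril-associated proteins at the interface, and they are made fast by lysyl oxidases, copper enzymes that crosslink elastin and collagen. In a normal liver elastic fibres lie mainly in the walls of vessels and in portal tracts, and they accumulate in fibrous septa when a liver scars. Stellate cells, portal fibroblasts and smooth muscle cells are the usual producers, and cholangiocytes line the ducts beside them.

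Libraries were of similar size, with totals between 20356392 and 21010474 expected counts. Levels are given as CPM, counts scaled to library size after TMM normalisation. Mettl14, the targeted gene, measured 6.30, 6.43 and 5.81 CPM in GFP livers and 4.96, 5.38 and 4.86 in the livers labelled AAV8-TBG-Cre. The groups did not overlap on this scale, and levels by library total alone were not compared. The difference, -0.29 on the log2 scale (SE 0.15), did not pass the edgeR test after Benjamini-Hochberg adjustment (adjusted p = 0.336). A whole-gene sum may include transcripts that lack the deleted part. Library names, as used here, have 2 or 4 digits, for no reason that the labels give. The headings of the deposited FPKM values pad the short names to a greater length, which leaves the same livers in each form. GFP replicates 1 and 2 and Cre replicate 1 have the short form, and GFP replicate 3 and Cre replicates 2 and 3 the long form. Cre replicate 2 stood apart for the genes described here and is named wherever a result leans on it.

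The promoters of 5 of the 10 members were in the RefSeq promoter table of build GRCm38.p6, as windows from 250 bases before to 50 bases after a transcription start. Those of Eln, Mfap4, Lox, Loxl1 and Loxl2 were not in it. Ltbp2 and Fbn1 are shown because their transcripts differed most between groups among the 5, and Emilin1 because it had the most transcript in GFP livers and its groups overlapped. Capitals mark a SMAD motif (CAGAC or its complement GTCTG) or a GC box (GGGCGG or CCGCCC), and each run is written 5′ to 3′ on the gene's strand.
Ltbp2, chr12:84876442-84876741, minus strand: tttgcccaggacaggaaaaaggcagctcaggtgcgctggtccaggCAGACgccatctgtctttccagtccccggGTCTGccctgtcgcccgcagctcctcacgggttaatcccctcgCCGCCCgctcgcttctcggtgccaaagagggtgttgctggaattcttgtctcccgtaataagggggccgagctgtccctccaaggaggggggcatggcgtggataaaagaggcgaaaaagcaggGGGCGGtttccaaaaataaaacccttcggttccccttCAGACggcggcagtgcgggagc
Fbn1, chr2:125506389-125506688, minus strand: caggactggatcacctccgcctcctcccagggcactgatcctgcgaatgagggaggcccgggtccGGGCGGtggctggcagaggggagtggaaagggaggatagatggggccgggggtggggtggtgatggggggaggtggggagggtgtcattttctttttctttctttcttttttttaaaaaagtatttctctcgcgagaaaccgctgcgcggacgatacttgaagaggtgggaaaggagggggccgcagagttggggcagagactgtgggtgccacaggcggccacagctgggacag
Emilin1, chr5:30913536-30913835, plus strand: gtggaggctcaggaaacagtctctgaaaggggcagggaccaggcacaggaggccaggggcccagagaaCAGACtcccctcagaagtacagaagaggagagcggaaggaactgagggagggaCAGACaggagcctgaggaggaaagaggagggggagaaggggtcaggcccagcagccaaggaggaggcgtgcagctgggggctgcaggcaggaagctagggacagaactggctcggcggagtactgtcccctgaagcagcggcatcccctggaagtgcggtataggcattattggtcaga
Ltbp2 held 3 SMAD motifs and 2 GC boxes, Fbn1 1 GC box and no SMAD motif, and Emilin1 2 SMAD motifs and no GC box. Such short motifs are common. CAGAC occurred in 49.6% and GGGCGG in 35.7% of the 32851 promoter windows in the table, searched on both strands. The TEAD motif GGAATG (14.7% of windows), the TATA box TATAAA (13.6%) and the CArG box (1.63%) had no match in the windows of these 5 genes. The window of Fbln2 held 2 GC boxes, and both windows of Fbln5 held SMAD motifs. A match is a description of the sequence only.

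Levels of the members were first compared with each other within the GFP livers, in FPKM, a fragment count divided by transcript length and library size. Emilin1, a glycoprotein at the surface of elastic fibres, had the highest level, 5.24 ± 1.21 FPKM (SD, n = 3). Its 3 values lay above every value of the next gene, Mfap4, a microfibril-associated protein that binds elastin and fibrillin, at 1.26 ± 0.917. Loxl2 (1.11 ± 0.0608), Loxl1 (0.983 ± 0.344), Fbln5 (0.873 ± 0.272), Eln (0.693 ± 0.247) and Fbln2 (0.647 ± 0.146) followed, and neighbours in this order, from Mfap4 down to Fbln2, overlapped. Fbn1 at 0.330 ± 0.0794 lay below all values of Fbln2, and Ltbp2 at 0.173 ± 0.0764 below all of Fbn1. Lox had the lowest level, 0.0867 ± 0.0351 FPKM, with a range that overlapped that of Ltbp2. Elastin itself thus was sixth of 10 in the control livers.

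In Cre livers the order was different. Eln came first at 13.0 ± 10.6 FPKM, ahead of Emilin1 at 8.44 ± 2.99, Mfap4 at 7.63 ± 5.00, Loxl1 at 3.79 ± 2.41 and Loxl2 at 2.69 ± 1.27. Ltbp2, Fbn1, Fbln2, Fbln5 and Lox had means between 1.10 and 1.55 FPKM. The spread between Cre livers was wide, and every pair of neighbours in this order overlapped. A ratio within a liver does not depend on its depth. Eln was at 0.162, 0.0696 and 0.188 times the FPKM of Emilin1 in GFP livers and at 1.09, 2.17 and 0.946 times in Cre livers. Relative to Fbn1, the fibrillin on which it is deposited, Eln measured 2.19, 1.43 and 2.70 in GFP livers and 6.85, 10.4 and 8.21 in Cre livers. Its share of the summed FPKM of the 10 members was 6.50%, 3.94% and 7.99% in GFP livers and 25.7%, 35.0% and 25.3% in Cre livers.

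**Figure D1:**
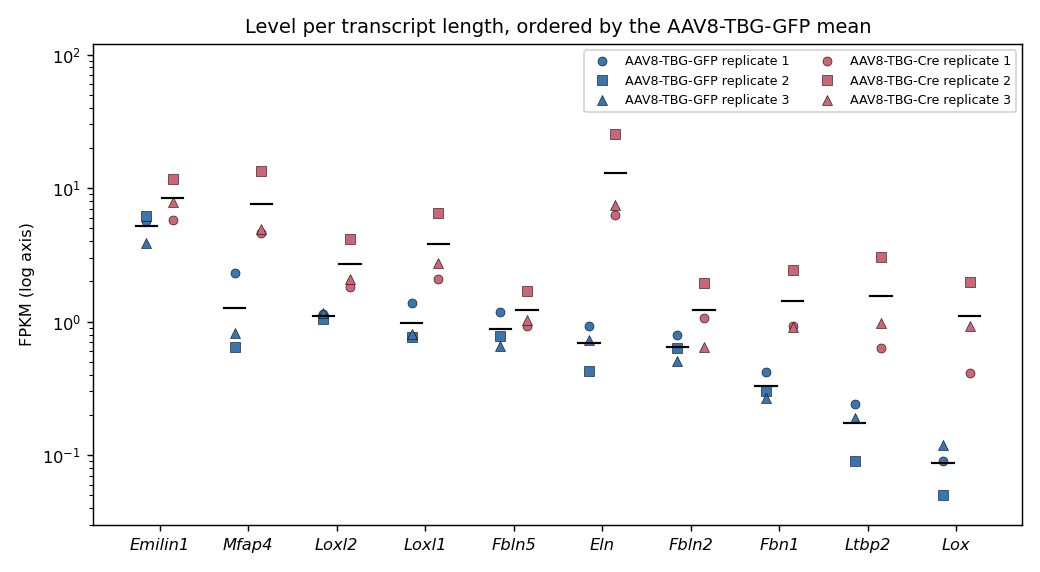
FPKM of each member in each liver on a log axis, ordered by the AAV8-TBG-GFP mean; points are livers and the black line is the group mean. Emilin1 stands first in GFP livers at 5.24 and Eln first in Cre livers at 13.0, where Cre replicate 2 reaches 25.3.

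In the comparison of Cre with GFP livers, elastin, the 3 microfibril genes and the 3 lysyl oxidases were higher in every Cre liver than in any GFP liver, while the 3 genes of fibre assembly overlapped. The values that follow are CPM after TMM normalisation, and differences are edgeR log2 fold changes with their standard errors. Genes were called at an unadjusted p under 0.05 with a fold of at least 1.2, the threshold of the study, and separately at an adjusted p under 0.05. At the first, 7 of the 10 members were called higher, where 12% of all genes tested were called higher and 20.5% in either direction. At the adjusted p, 1 member was called, Eln, where 0.484% of all genes were called higher. The same 7 had groups that did not overlap, which held for 14% of all genes in this direction. All 10 members had a log2 fold change above 0, with a median of 1.82, where 49% of all genes tested were above 0 and their median was -0.0064. Because the set was chosen with Eln's increase known, nothing is read from these counts.

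Eln encodes elastin, the rubber-like core of the fibre, and lies on chromosome 5 (134702595 to 134747368, GRCm38.p6, the build to which all positions here refer). It measured 3.71, 1.79 and 3.14 CPM in GFP livers and 24.1, 83.8 and 29.5 CPM in Cre livers. The lowest Cre liver was far above the highest GFP liver, and Cre replicate 2 was far above the other Cre livers. The fold of the means was 15.9, and 9.31 without Cre replicate 2, and the log2 fold change was 3.99 (SE 0.55), the 12th largest of all genes tested. The counts behind these values were 73, 35 and 60 in GFP livers and 505, 2041 and 613 in Cre livers, so that counting error was small beside the spread between mice.

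Among the 3 microfibril genes of the set, Ltbp2 showed the widest gap between groups. Its product binds fibrillin and, unlike its relatives, does not hold latent TGF beta (chromosome 12, 84783212 to 84876558). It measured 1.68, 0.663 and 1.41 CPM in GFP livers and 4.15, 17.4 and 6.64 in Cre livers. The groups were apart, with a log2 fold change of 2.91 (SE 0.60) and a fold of means of 7.51, or 4.31 without Cre replicate 2. Mfap4 (chromosome 11, 61485431 to 61488708) measured 3.61, 1.02 and 1.36 CPM in GFP livers and 6.78, 17.1 and 7.46 in Cre livers. GFP replicate 1 was the highest control liver, at a level nearer to the lowest Cre liver than to the other control livers in fold terms, and the log2 fold change was 2.39 (SE 0.54). Fbn1, which encodes fibrillin-1, the main structural protein of microfibrils (chromosome 2, 125300594 to 125506485), measured 4.37, 3.16 and 2.98 CPM against 9.11, 20.8 and 9.29. Cre replicates 1 and 3 were nearly alike, and the log2 fold change was 1.90 (SE 0.36).

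The lysyl oxidases differed in level and in the size of the difference. Lox, the founding enzyme of the family, was close to the limit of counting in GFP livers, with 8, 5 and 12 counts, or 0.407, 0.255 and 0.628 CPM. In Cre livers it had 40, 193 and 91 counts, or 1.91, 7.93 and 4.38 CPM, each above all control livers. The log2 fold change was 3.45 (SE 0.60), next to that of Eln within the set, and the fold of means was 11.0, or 7.31 without Cre replicate 2. Loxl1, the family member needed for the upkeep of elastic fibres (chromosome 9, 58287723 to 58313212), measured 4.83, 2.70 and 2.98 CPM in GFP livers and 6.92, 18.7 and 9.29 in Cre livers, with a log2 fold change of 1.73 (SE 0.41). Loxl2, which crosslinks collagens of basement membrane and scar (chromosome 14, 69608692 to 69695834), was the steadiest in control livers at 6.20, 5.76 and 6.60 CPM. Its Cre livers, at 9.45, 18.5 and 11.1 CPM, were all higher, with a log2 fold change of 1.07 (SE 0.26). Lox had the lowest mean FPKM of the 3 in both groups and the largest log2 fold change, and Loxl2 the smallest.

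The 3 genes of assembly were not called. Fbln5, whose protein tethers elastin to cells and recruits Loxl1 (chromosome 12, 101746565 to 101819119), measured 7.32, 4.90 and 4.34 CPM in GFP livers and 5.39, 8.63 and 6.21 in Cre livers. The highest control liver lay above 2 of the 3 Cre livers, and the log2 fold change was 0.29 (SE 0.26). Emilin1 (chromosome 5, 30913387 to 30921279) measured 20.5, 22.8 and 14.9 CPM in GFP livers and 19.8, 34.6 and 28.0 in Cre livers. Cre replicate 1 fell within the control range, and the log2 fold change was 0.50 (SE 0.23). Fbln2, a fibulin of vessel walls and basement membrane (chromosome 6, 91212460 to 91272540), measured 3.76, 2.91 and 2.46 CPM against 4.58, 7.31 and 2.89. Cre replicate 3 was below GFP replicates 1 and 2, and the log2 fold change was 0.70 (SE 0.35). Leaving out a liver brought Emilin1 past the threshold without GFP replicate 2 (0.63) or without Cre replicate 1 (0.69), and Fbln2 without Cre replicate 3 (0.96), so the line between called and not called members rests on single mice.

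**Figure D2:**
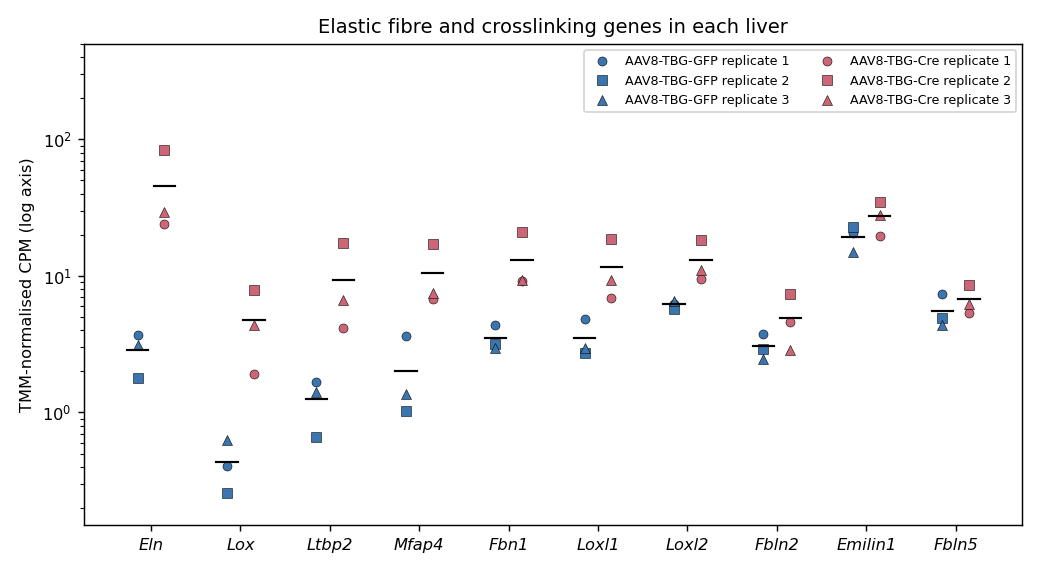
TMM-normalised CPM of each member in each liver on a log axis, ordered by the fold of the group means; points are livers and the black line is the group mean. The 7 genes from Eln to Loxl2 show no overlap between groups, and Fbln2, Emilin1 and Fbln5 do.

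Most members shared the same highest liver within a group. Cre replicate 2 was the highest of the Cre livers for 10 of 10 members, which held for 33.8% of all genes tested. This was not particular to the set. Among the lists described below it held for 23 of 32 other pathway genes and 13 of 16 proteases, inhibitors and ligands. Of 50 cell type markers tested it held for 32, from 1 of 6 for hepatocytes to 7 of 8 for stellate cells and 4 of 4 for smooth muscle. For members, the level of Cre replicate 2 over the mean of the other Cre livers ran from 1.45-fold for Emilin1 to 3.23-fold for Ltbp2. It reached 1.5-fold for 8 members, a ratio found for 12.7% of all genes, where the median gene was at 0.987. Within controls, GFP replicate 1 was the highest liver for 7 of 10 members, against 29.2% of all genes. Cre replicate 1 and Cre replicate 3 each lay above all GFP livers for 8 members and Cre replicate 2 for all 10. The share of all genes was not computed for single livers, so nothing is read from these counts. Without Cre replicate 2, 7 members were called, where 14.0% of all genes were in either direction, and the median log2 fold change was 1.30. At the adjusted p in edgeR, 7 members were called without Cre replicate 1, where 6.76% of all genes were. Without any other single liver 0 were called, where at most 0.124% of all genes were. At the unadjusted p these fits called 7 or 8 members and 14.0% to 27.3% of all genes.

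Library-name form was a contrast that the choice of genes did not use, and it was tested with the vector held in the edgeR fit. Of the 10 members, 1 was called between 4-digit and 2-digit names, where 15.9% of all genes were. Lox was higher in livers with 4-digit names by 1.43 on the log2 scale (SE 0.41, unadjusted p = 0.00962), and did not pass adjustment by the Benjamini-Hochberg method in edgeR (adjusted p = 0.149, the smallest among the members). Among all genes 187 had an adjusted p under 0.05 for this term. Eln had a coefficient of 0.87 (SE 0.51), and 8 of 10 members had one above 0. The count of members ran from 1 to 3 as single livers were left out, with 2 without GFP replicate 1 or GFP replicate 3 and 3 without Cre replicate 3.

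The comparison of Cre with GFP was then read within each form. Among 2-digit names, Cre replicate 1 was above the mean of GFP replicates 1 and 2 for 8 members, with a median log2 ratio of 1.08, and Eln at 3.13. Emilin1 and Fbln5, at -0.13 and -0.18, were the other two. Among 4-digit names, Cre replicates 2 and 3 were above GFP replicate 3 for all 10 members, with a median of 2.28, and Eln at 4.17. No form had more than 3 livers, so these ratios carry no test.

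**Figure D3:**
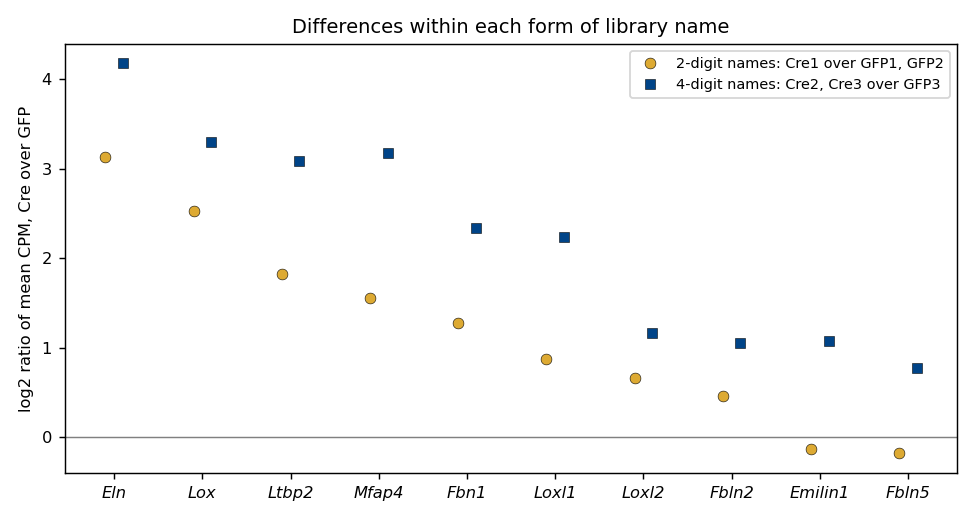
log2 ratio of the mean CPM of Cre over GFP livers for each member within 2-digit and within 4-digit library names; 1 point per form. Eln is at 3.13 and 4.17, and only Emilin1 and Fbln5 fall below 0, both within 2-digit names.

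Other genes of the pathway were taken as 37 names, listed by role with earlier results of these data known, so their counts are not those of an independent set. Of these 35 had a count and 32 were tested, and 13 were higher and 1 lower in Cre livers at the unadjusted threshold, while 0 passed the adjusted p in edgeR and 14 in all passed the unadjusted one. Over all genes tested, 12% were called higher and 20.5% in either direction, the shares beside which the counts of this list and its groups stand. Their median log2 fold change was 0.49. Of 9 microfibril genes tested 7 were called higher, 4 of which were not called without Cre replicate 2 (Ltbp1, Adamtsl2, Thsd4 and Adamts10). Fbn2, a second fibrillin that is used mainly in development, measured 0.203, 0 and 0.105 CPM in GFP livers and 1.67, 5.30 and 1.25 in Cre livers (log2 fold change 4.67, SE 0.89, edgeR adjusted p = 0.0581). It rested on a handful of reads in the controls, and the groups did not overlap. Mfap2, a small microfibril glycoprotein, rose by 2.99 (SE 0.76, edgeR adjusted p = 0.0883) on the log2 scale, from 0.457, 0.204 and 0.157 CPM to 0.859, 4.44 and 1.30. Ltbp3, which holds latent TGF beta on the matrix, measured 4.57, 3.57 and 3.61 CPM against 8.02, 21.0 and 10.5 (log2 fold change 1.75, edgeR adjusted p = 0.0620).

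Ltbp1, Adamtsl2, Thsd4 and Adamts10, which shape fibrillin microfibrils or hold TGF beta on them, were called at log2 fold changes of 1.18, 1.10, 1.12 and 0.58. Ltbp4 (0.06) and Adamtsl4 (0.06) were not. In the assembly group 2 of 6 tested genes were called: Fbln1 at 2.13 and Efemp2, or fibulin-4, which brings Lox to elastin, at 0.89. Efemp1 (0.45), Emilin2 (0.48), Fbln7 (-0.36) and Mmrn2 (-0.22) were not called. None of Glb1, Neu1 and Ctsa, whose products form the elastin receptor complex on cells, was called, with log2 fold changes of 0.33, -0.22 and -0.12. Emilin3 had no count, and Mfap5 and Mmrn1 had too few counts to test.

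Of the other crosslinking genes 14 were tested, with 4 higher and 1 lower. The remaining lysyl oxidases, Loxl3 (0.29, SE 0.40) and Loxl4 (0.61, SE 0.32), were not called. Plod2, the hydroxylase that prepares collagen ends for stable crosslinks, rose from 1.17, 0.765 and 0.733 CPM to 1.62, 4.97 and 3.51 (log2 fold change 1.92, SE 0.45, edgeR adjusted p = 0.0789). Plod1, which acts on the collagen helix, went the other way, from 83.0, 86.8 and 93.9 CPM to 66.4, 68.0 and 73.4 (log2 fold change -0.34, SE 0.10, edgeR adjusted p = 0.122), and Plod3 had a value of -0.10. Fmod, or fibromodulin, which binds collagen and guides its crosslinking, rose by 2.15 (SE 0.57, edgeR adjusted p = 0.0968). Pxdn, which crosslinks collagen IV, and Atp7a, the pump that supplies copper to lysyl oxidases, were called at 0.63 and 0.51. Bmp1 (-0.22), Pcolce (0.49), Pcolce2 (-0.26), Tgm2 (0.16), Postn (0.57) and Fn1 (-0.39, with all Cre livers below all GFP livers) did not pass, Tll1 had too few counts and Tll2 none.

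The count for these other pathway genes fell to 8 without Cre replicate 2, where 14.0% of all genes were called in either direction. Ltbp1, Adamtsl2, Thsd4, Adamts10, Pxdn and Atp7a were then no longer called. Ltbp1, Thsd4, Adamts10, Pxdn and Atp7a were also lost without GFP replicate 2 or 3, Ltbp1 and Atp7a without Cre replicate 3, and Atp7a without GFP replicate 1. Fbn2, Mfap2, Ltbp3, Fbln1, Efemp2, Plod1, Plod2 and Fmod were called whichever liver was left out. With library-name form in the fit 9 were called, where 19.4% of all genes were, and Ltbp1, Thsd4, Adamts10, Fbln1 and Atp7a were not.

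**Figure D4:**
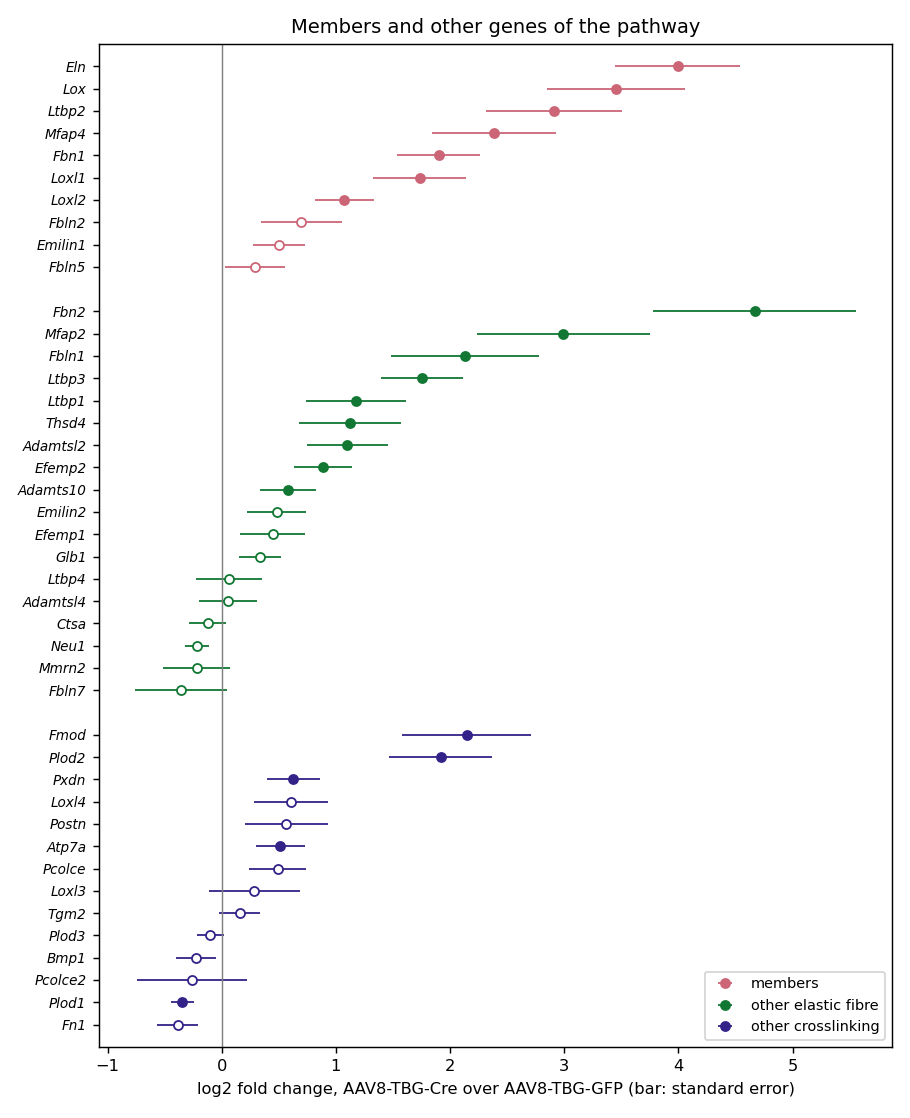
edgeR log2 fold change of Cre over GFP livers for the 10 members and the 32 tested genes of the other lists; bars are standard errors, filled points were called at an unadjusted p under 0.05 with at least 1.2-fold and open points were not. Eln at 3.99 and Fbn2 at 4.67 lie furthest right, and Plod1 at -0.34 is the filled point left of 0.

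Enzymes that cut elastin, their inhibitors and the TGF beta ligands held by latent binding proteins were tested as a further list of 17 genes. Of 16 tested, 11 were higher and 0 lower, with a median log2 fold change of 1.43, and 1 passed the adjusted p, where 12% of all genes were called higher and 0.484% at the adjusted p. That gene was Slpi, an inhibitor of neutrophil elastase, at 0.610, 0.663 and 0.942 CPM in GFP livers and 2.82, 4.64 and 3.18 in Cre livers (log2 fold change 2.26, SE 0.32, edgeR adjusted p = 0.0362). Among proteases 6 of 8 were called. Mmp7, an epithelial protease, differed most, from 0.661, 0.0510 and 0.209 CPM to 3.20, 6.08 and 2.60 (log2 fold change 3.66, SE 0.66, edgeR adjusted p = 0.0549). Mmp2 rose by 2.21, Mmp12, the macrophage elastase, by 2.05, Ctss by 1.51, Ctsk by 1.35 and Ctsl by 0.57. Mmp9 (0.70) and Prtn3 (0.08) were not called, and Elane, the neutrophil elastase, had too few counts to test.

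Among inhibitors 3 of 5 were called higher. Timp1 rose by 2.17 (SE 0.42) and Timp2 by 1.14 (SE 0.30), while Timp3 (0.23) and Cst3 (0.06) did not pass. Of the ligands, Tgfb2 rose from 0.864, 0.459 and 0.576 CPM to 2.10, 4.64 and 2.55 (log2 fold change 2.28, SE 0.42, edgeR adjusted p = 0.0552). Tgfb3 rose by 2.23 (SE 0.50), and Tgfb1 had a value of 0.25 (SE 0.20) with overlapping groups. Ctsk was lost without GFP replicate 1 or Cre replicate 2, and the other calls of this list held whichever liver was left out. Slpi had an edgeR adjusted p of 0.0235 without Cre replicate 1, and did not pass without any other single liver (0.0757 to 0.161).

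The genes with a pattern nearest to Eln over the 6 livers were found by the root mean square (RMS) difference of log2 CPM, each gene centred on its own mean, as a description. Fbn2 was nearest at 0.274, followed by Foxj1 (0.372), Tspan8 (0.439), Mmp7 (0.50) and Igdcc4 (0.513), where the median gene was at 2.01. Foxj1 measured 0.966, 0.255 and 0.838 CPM in GFP livers and 4.25, 11.5 and 5.44 in Cre livers. Within the set Lox (0.503), Ltbp2 (0.581) and Mfap4 (0.773) were nearest to Eln, and Fbln5 (1.80), Emilin1 (1.74) and Fbln2 (1.65) the furthest. Taking the mean of the 10 members as the pattern, the nearest genes were Ncam1 (0.0943), Fstl1 (0.103), Prr15l (0.114), Col1a2 (0.117) and Ltbp3 (0.125), with the median gene at 1.01. Col1a2, a chain of type I collagen, measured 31.8, 18.6 and 20.3 CPM in GFP livers and 63.9, 132.9 and 63.4 in Cre livers. The libraries were of similar depth, and whether they share a preparation is not given. Likeness over 6 livers carries no test.

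Marker genes of the cell types a whole liver holds were set beside these values, as sums of CPM. The counts of markers called, for every cell type, stand beside the shares of all genes tested. These were 12% higher and 20.5% in either direction at the unadjusted threshold, and 0.484% higher at the adjusted p. Counts such as 1 or 2 in a list of 6 or 8 are near those shares. Hepatocyte markers summed to between 79660 and 99855 in GFP livers and between 69135 and 88000 in Cre livers, lowest in Cre replicate 2. Of 6 hepatocyte markers 1 was called higher (Cps1) and 2 lower (Ttr and Serpina7). Sums for the usual producers of elastic fibres overlapped between groups. Stellate cell markers summed to 167.5 to 282.2 CPM in GFP livers and 149.6 to 219.2 in Cre livers, with 2 of 8 called higher (Ngfr and Pdgfrb), 1 lower (Ecm1) and 5 of 8 log2 fold changes above 0. Ecm1 made up much of the sum, and without it, a choice made after its values were seen, the group means were 108.7 CPM in GFP and 120.6 in Cre livers. Smooth muscle markers summed to between 19.0 and 37.8 CPM in GFP livers and between 15.7 and 35.8 in Cre livers, and 0 of 4 tested were called by edgeR at an unadjusted p under 0.05. Acta2 had a log2 fold change of -0.37 (SE 0.55) and Myh11 of -1.16 (SE 0.67).

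Portal fibroblast markers summed to between 28.3 and 44.4 CPM in GFP livers and between 43.2 and 63.1 in Cre livers. Of 5 tested, Entpd2 (0.78) and Dpt (1.26) were called higher, and Thy1 (0.57), Mgp and Gas1 were not. The log2 fold changes of the 5 ran from -0.25 to 1.40, with both ends in genes not called, and 4 were above 0. Gli1, Clec3b and Pi16 had too few counts to test, with Gli1 at 0 in GFP replicate 1. Pi16 had 2 counts in each GFP liver and 9, 13 and 8 in Cre livers. Mesothelial markers were scarce, at 1.33 to 3.98 CPM in sum in GFP livers and 3.96 to 10.5 in Cre livers. Msln and Gpm6a were called higher among 4 tested, and Upk1b was at 0 in GFP replicate 3.

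Cholangiocyte markers summed to 72.2 to 127.9 CPM in GFP livers and 304.9 to 571.5 in Cre livers, highest in Cre replicate 2, and 7 of 7 tested were higher, 3 of them at the adjusted p (Sox9, Spp1 and Cldn4). Spp1 made up most of this sum. The ratio of the group means was 3.90 with it and 2.26 without it, a choice made after its values were seen, and that of the mesothelial list was 2.52. Krt19, a keratin of bile ducts, rose from 1.88, 0.714 and 0.733 CPM to 4.10, 10.4 and 4.43 (log2 fold change 2.50, SE 0.52, edgeR adjusted p = 0.0620). Macrophage markers summed to 172.1 to 199.4 CPM in GFP livers and 242.0 to 326.7 in Cre livers, with 5 of 8 higher, 1 of them at the adjusted p (Cd5l). Endothelial markers summed to 133.4 to 209.5 CPM against 135.2 to 161.3, with 0 of 8 higher and Stab2 lower. Sox9, Spp1, Cldn4 and Cd5l passed the adjusted p without Cre replicate 1 and not without any other single liver. The part of any of these cell types in the values of the members was not tested.

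**Figure D5:**
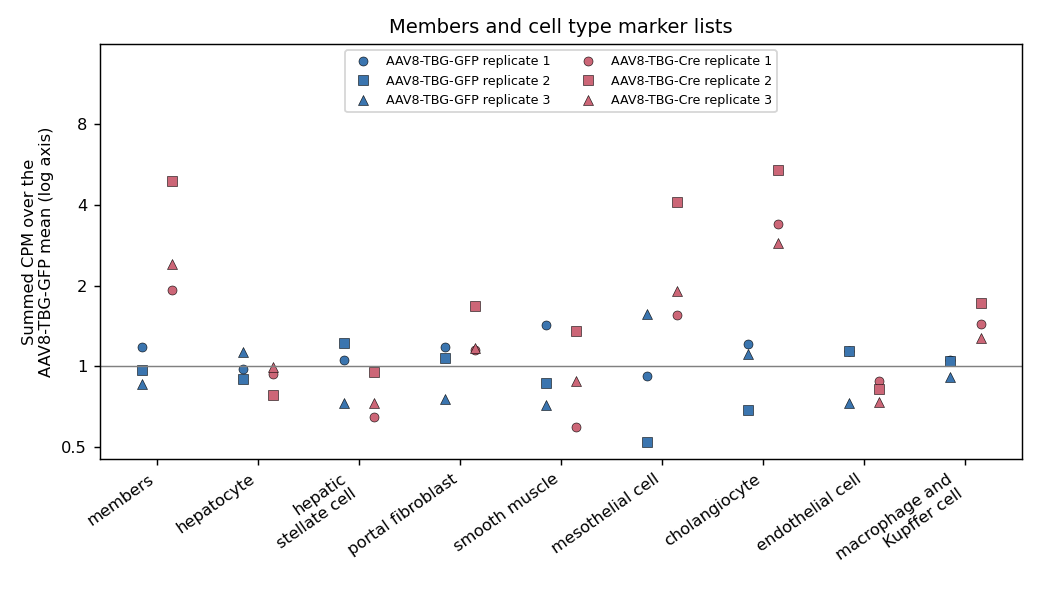
Summed CPM of the 10 members and of each marker list in each liver, divided by the mean of the GFP livers, on a log axis; points are livers and the line is at 1. Cre livers reach 1.93 to 4.92 for the members and 2.88 to 5.41 for cholangiocyte markers, and lie at 0.647 to 0.948 for stellate cell markers. Without Spp1 the cholangiocyte range is 1.64 to 2.95, and without Ecm1 the stellate cell range is 0.963 to 1.38.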

How the data were processed

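Whole-liver RNA-seq of 6 mice was grouped by vector, as the sample labels give it. For every transcript the authors deposited an unnormalised expected count, which can be fractional, and an FPKM per transcript and gene, scaled by length and library. The submitters' processing notes name HISAT2, Bowtie2, RSEM and build mm10, and the methods name STAR, HTSeq and DESeq2. Versions are not given in the sources used here, nor is strand.

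Transcripts of 1 NCBI gene ID were added up and rounded to whole counts, and 1 row without a gene ID was left out (at most 0.00034% of a library). Of 18418 IDs, 18375 matched the RefSeq table of GRCm38.p6. The main test was edgeR 4.0.16 (R 4.3.3) with TMM, filterByExpr, the quasi-likelihood test and the vector as factor, and p-values were adjusted over all 13430 genes. Steps were tested on simulated data. Alternatives were RLE factors, DESeq2 1.42.0, no filter, a replicate block, library-name form as covariate, limma 3.58.1 on log2(FPKM + pseudocount), with a pseudocount of 1 or 0.1 and a minimum of 0.5 FPKM in 3 livers or none, and each liver left out. CPM and FPKM carry counting error as well as spread between mice.

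All members and lists were named by gene, with the 5 nearest patterns by RMS difference, after log2 transformation with a prior count of 2. The members and lists were chosen with earlier results of these data known. Libraries of a group differed beyond sampling noise (smallest chi-square per gene, 24.9).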

Additional observations from a re-analysis of the deposited data

How the results depend on the processing

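Across 138 alternative values of the members' log2 fold changes, 0 reversed, 134 kept their side of the threshold and 4 passed it newly: Emilin1 without the filter (0.49), without GFP replicate 2 or without Cre replicate 1, and Fbln2 without Cre replicate 3. Eln ranged from 2.81 to 4.3, Lox from 0.885 to 3.83 and Ltbp2 from 1.01 to 3.26, lowest for limma on log2(FPKM + 1), where the added constant is large beside low values. The count of members called at the unadjusted p stayed between 6 and 8, and that of the proteases, inhibitors and ligands between 10 and 12. Over these settings 12.9% to 27.3% of all genes were called. The count of 6 came from limma with the FPKM filter, where 9 members were tested and Lox was not.

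The count of members at an adjusted p under 0.05 was 1 in edgeR and depended on the setting. So did the share of all genes called in either direction, 0.931% in edgeR. The count was 7 with DESeq2 (6.28% of all genes), 6 without the filter on low counts (2.02%), 2 with the library-name covariate (1.59%, Eln and Lox) and 0 with limma on log2(FPKM + 1) (0.181%), on log2(FPKM + 0.1) (0.222%) and without the FPKM filter (0.0488%). As single livers were left out it ran from 0 to 7, the latter without Cre replicate 1, when 6.76% of all genes were called. The cause was not tested. The count of other pathway genes, 14, was 9 with the library-name covariate (19.4% of all genes called). With limma it was 5 of 25 tested on log2(FPKM + 1) (18.5%) and 7 of 25 on log2(FPKM + 0.1) (19.5%). Without the FPKM filter it was 7 of 35 (12.9%). It ran from 8 to 18 as single livers were left out, when 14.0% to 27.3% of all genes were called. The count by library-name form ran from 1 to 3 as single livers were left out, and without Cre replicate 1 the 1 member called was Emilin1, lower in 4-digit names. The cause was not tested.

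Replicate numbers did not pair the livers, since same-numbered livers deviated from their group means with correlations of 0.00916, -0.263 and 0.209. With the replicate block in edgeR, 0 members passed the adjusted p (0.0521% of all genes did) and 7 the unadjusted one (19.3%). At the latter, 11 other pathway genes and 11 proteases, inhibitors and ligands were called.

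With 3 mice a group, precision was set by the spread between mice. Lox, Fbn2 and Mfap2 had few counts in GFP livers, where a fold change carries a wide counting error.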

Other observations

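The expected counts of the members with more than 1 transcript were assigned to transcripts in an all-or-none way in some livers. For Fbln2, the 74 counts of GFP replicate 1 were all given to the transcript of 4477 bases, whereas GFP replicates 2 and 3 and Cre replicates 1 and 3 had 57, 47, 96 and 60 counts on the transcript of 4336 bases and none listed on the longer one. Cre replicate 2 had counts on both, 146.5 on the shorter and 31.5 on the longer. For Lox, GFP replicates 1 and 2 had 8 and 5 counts on the transcript of 4494 bases, GFP replicate 3 had 11.6 on that of 4914 bases, and all Cre livers had both. The sums per gene used above do not depend on this assignment, and no statement is made on transcript use.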
